A study of Mus musculus with 9 samples.

Results

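Noggin, BMP ligands, a BMP receptor, the inhibitory Smads and the Id proteins were followed as a set of 10 genes (Nog, Bmp2, Bmp4, Bmpr1a, Smad6, Smad7, Id1, Id2, Id3 and Id4) among the 47729 genes counted. The 10 were listed by symbol. Nog was chosen by its measured level, higher in both knockouts than in the control, so its differences from the control below are a description of that choice and carry no test. The cells were C2C12, an established mouse myoblast line that leaves the cell cycle and fuses into myotubes when growth serum is withdrawn. The control population (WT) had received CRISPR-Cas9 with a guide RNA that has no target, and the other populations carried a CRISPR-Cas9 knockout of Per1 (Per1KO) or Per2 (Per2KO), which encode repressors of the circadian clock. Undifferentiated cells were kept in 10% fetal bovine serum (day 0), and 5% horse serum then induced differentiation, which was sampled on days 3 and 5. Each of the 9 combinations gave 1 library. Whether a knockout population is a clone or a pool was not given in the sources used here, and the Per1 and Per2 knockouts are 1 population each.

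BMPs are secreted signals of the TGF-beta family. They bind receptors such as BMPR1A, which phosphorylate Smad1, Smad5 and Smad9, and these enter the nucleus with Smad4. Noggin binds BMPs outside the cell and keeps them from their receptors, while Smad6 and Smad7 act inside the cell as feedback inhibitors. Id proteins are classical BMP targets: they lack a DNA-binding region, pair with E proteins such as that encoded by Tcf3, and so keep MyoD-type factors from activating muscle genes. In C2C12 cells BMPs are known for blocking myotube formation and for turning the cells toward an osteoblast fate.

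The WT libraries held 5020385 to 6773320 counts and the knockout libraries 41997763 to 48051824. The titles of the WT libraries alone carry a further suffix, whose meaning the labels do not give. Depth, whatever the suffix marks, and genotype cannot be told apart. The labels give whole muscle as tissue beside the C2C12 cell line. Of 6 myoblast and muscle markers, 6 reached 1 CPM (TMM-scaled counts-per-million) in 7 libraries and 5 in both knockouts on day 0, whereas the 4 endothelial markers summed to at most 0.433 CPM and the 4 leukocyte markers to at most 2.86 CPM. The summed muscle markers were 3025, 13868 and 12129 CPM in WT on days 0, 3 and 5, 1760, 6169 and 10228 CPM in Per1KO, and 1443, 5746 and 8633 CPM in Per2KO. They were lower in both knockouts on each day, and their part in the differences below was not tested. Of the 5 osteoblast markers, Runx2 reached 1 CPM in every library, Alpl had 1 count in 1 library and 0 in the others, and the sum ranged from 30.6 to 66.5 CPM. The 4 fibro-adipogenic markers (Pdgfra, Ly6a, Dpt and Dcn) were all detected and summed to 454, 1045 and 976 CPM in WT, 170, 1131 and 1175 CPM in Per1KO, and 162, 1200 and 1315 CPM in Per2KO. Of these, Dpt (log2 −4.61 ± 0.52, adjusted p = 0.00110, in Per1KO and −3.92 ± 0.50, adjusted p = 0.00176, in Per2KO) and Pdgfra (−1.24 ± 0.18, adjusted p = 0.00313, and −1.27 ± 0.18, adjusted p = 0.00277) were lower in both knockouts, while Ly6a and Dcn were not called. Sox9, of the chondrocyte markers, was also lower in both (−0.70 ± 0.11, adjusted p = 0.00437, and −0.69 ± 0.11, adjusted p = 0.00459). The part of these markers in the differences below was not tested. RNA of the targeted genes was still counted: Per1 stood at 20.9 to 32.4 CPM in Per1KO against 31.01 to 35.6 CPM in WT, and Per2 at 3.50 to 9.13 CPM in Per2KO against 9.74 to 20.5 CPM in WT. In the knockout of the other gene, Per1 stood at 16.5 to 32.9 CPM (Per2KO) and Per2 at 6.59 to 10.6 CPM (Per1KO).

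A promoter window from RefSeq (GRCm38.p6, 250 bases before to 50 after a start site) was held for 6 of the 10 genes: Bmp4, Bmpr1a, Smad6, Id2, Id3 and Id4. Each was searched on both strands for GGCGCC, a GC element known to be bound by Smad1 and Smad5, CAGAC, the Smad-binding element, CACGTG, the E-box bound by CLOCK and BMAL1, and CAGCTG, an E-box of myogenic factors. The motifs do not overlap one another in these windows. The stretches before the start site that lie outside annotated exons are shown for Smad6, the member below WT in both knockouts, for Bmp4, the member with the largest rise in differentiation, and for Id2, which holds a pair of the motifs in a stretch that is intron in a longer annotated transcript. Capitals mark the matches, and each sequence reads 5′ to 3′ on the gene's strand.
Smad6 (chr9:64022060-64022309, minus strand): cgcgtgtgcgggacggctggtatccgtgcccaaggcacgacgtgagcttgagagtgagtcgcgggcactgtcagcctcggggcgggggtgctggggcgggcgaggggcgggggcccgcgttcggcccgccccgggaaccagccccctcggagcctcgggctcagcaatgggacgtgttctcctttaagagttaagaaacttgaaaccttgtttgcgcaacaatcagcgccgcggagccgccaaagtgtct
Bmp4 (chr14:46390670-46390919, minus strand): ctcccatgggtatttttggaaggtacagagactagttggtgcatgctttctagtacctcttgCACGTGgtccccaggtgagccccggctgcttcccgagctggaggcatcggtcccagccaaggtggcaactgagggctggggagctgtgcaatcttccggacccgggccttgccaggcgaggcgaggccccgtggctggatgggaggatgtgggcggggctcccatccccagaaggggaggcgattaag
Id2 (chr12:25096254-25096342, minus strand): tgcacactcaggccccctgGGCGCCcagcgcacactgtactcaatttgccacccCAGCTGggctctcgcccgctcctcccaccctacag
The Bmp4 stretch holds CACGTG 188 bases before the start, the Id2 stretch holds GGCGCC 231 and CAGCTG 196 bases before it, and the Smad6 window holds none of the 4. Outside the stretches shown, GGCGCC also occurs before Bmpr1a and Id4, and CAGAC occurs before Id3 at 167 and 68 bases. Of 32851 mouse windows of this length, 11.9% hold GGCGCC, 7.15% CACGTG, 16.3% CAGCTG and 49.6% CAGAC. The matches describe letters only and were not tested as binding sites.

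Nog, the secreted antagonist (ENSMUSG00000048616, chr11:89300638-89302332, minus strand; all gene positions are on build GRCm38), was the member chosen for its difference. In WT it stood at 4.80, 1.64 and 3.30 CPM on days 0, 3 and 5 (34, 9 and 15 counts). In Per1KO it stood at 8.01, 18.8 and 22.7 CPM and in Per2KO at 6.95, 22.1 and 21.7 CPM. All 6 knockout libraries lay above all 3 WT libraries, as was the case for 9.83% of the 13324 genes tested, and the gap was small on day 0 and wide afterwards. The Per1KO to WT ratio was 1.67 on day 0 (95% counting interval 1.17 to 2.44), 11.5 on day 3 (6.01 to 25.1) and 6.90 on day 5 (4.16 to 12.4). The Per2KO to WT ratio was 1.45 (1.02 to 2.12), 13.5 (7.06 to 29.5) and 6.58 (3.97 to 11.8) on the same days. These intervals cover counting error only, since each value is 1 library. Over the 3 days the fitted log2 difference was 2.09 ± 0.52 (SE) in Per1KO and 2.102 ± 0.52 in Per2KO. Without day 0 it was 3.09 and 3.18, and without day 3 it was 1.48 in Per2KO.

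After day 0 noggin RNA was higher in both knockouts, whereas in WT it was lower on day 3 and its day 5 interval held 1. Relative to day 0, WT stood at 0.342 on day 3 (0.144 to 0.728) and 0.687 on day 5 (0.348 to 1.30). Per1KO stood at 2.35 (2.09 to 2.65) and 2.84 (2.52 to 3.20), and Per2KO at 3.18 (2.82 to 3.59) and 3.12 (2.76 to 3.54). Fitted over the 3 genotypes, the day 3 difference (0.91 ± 0.47, adjusted p = 0.172) and the day 5 difference (1.12 ± 0.47, adjusted p = 0.0886, edgeR) did not pass the test.

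Of the ligands, Bmp2 was not detected: all 9 libraries held 0 counts. The limit of 3 counts set for a count of 0 equals 0.424 to 0.660 CPM at the depth of WT and 0.0591 to 0.0731 CPM at that of the knockouts. Bmp4 (ENSMUSG00000021835, chr14:46383520-46390669, minus strand) was low before differentiation in the knockouts and rose afterwards. Its level was 4.52, 3.10 and 20.2 CPM in WT on days 0, 3 and 5, 0.223, 5.32 and 8.36 CPM in Per1KO, and 0.354, 5.80 and 12.5 CPM in Per2KO. The day 0 knockout levels were thus 0.0494 (0.0224 to 0.1005) and 0.0784 (0.0414 to 0.144) of WT. On day 3 the order was turned, with ratios of 1.72 (1.05 to 2.99) and 1.87 (1.15 to 3.25), and on day 5 both knockouts lay below WT again, at 0.413 (0.327 to 0.526) and 0.619 (0.495 to 0.781). Across the days neither genotype difference passed the test (log2 −1.44 ± 0.78, adjusted p = 0.234, and −1.09 ± 0.77, adjusted p = 0.353). Across the genotypes Bmp4 rose by 2.80 ± 0.83 on day 3 (adjusted p = 0.0352) and 3.96 ± 0.82 on day 5 (adjusted p = 0.00615, log2). Both calls were lost when either knockout was left out (1.82 and 2.04 on day 3, adjusted p = 0.425 and 0.336; 3.36 and 3.26 on day 5, adjusted p = 0.125 and 0.0991) and when the count filter was dropped (adjusted p = 0.171 and 0.0558), and the day 3 call also with the knockouts thinned to WT depth (1.56, adjusted p = 0.142). The gene overlaps Gm15217 and Gm15222 on the other strand, and without a stated strand setting their reads cannot be told apart.

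Bmpr1a (ENSMUSG00000021796, chr14:34410734-34503341, minus strand), the type I receptor, was the most abundant member and rose in differentiation in all 3 populations. It was at 156, 198 and 196 CPM in WT, 146, 263 and 262 CPM in Per1KO, and 140, 269 and 251 CPM in Per2KO. Day 0 was the lowest library of each population. The log2 rise was 0.71 ± 0.14 on day 3 (adjusted p = 0.00810) and 0.67 ± 0.14 on day 5 (adjusted p = 0.00697). Both calls were lost without Per1KO (0.64 and 0.58, adjusted p = 0.142 and 0.129) or without Per2KO (0.59 and 0.58, adjusted p = 0.135 and 0.1003). Against WT the differences of 0.24 ± 0.14 in Per1KO (adjusted p = 0.280) and 0.21 ± 0.14 in Per2KO (adjusted p = 0.342) did not pass the test. On days 3 and 5 alone they were 0.41 (adjusted p = 0.0479) and 0.39 (adjusted p = 0.0486). No other alternative gave a call against WT, with adjusted p up to 0.726 and 0.779. An antisense gene, Gm17110, overlaps it.

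**Figure D1:**
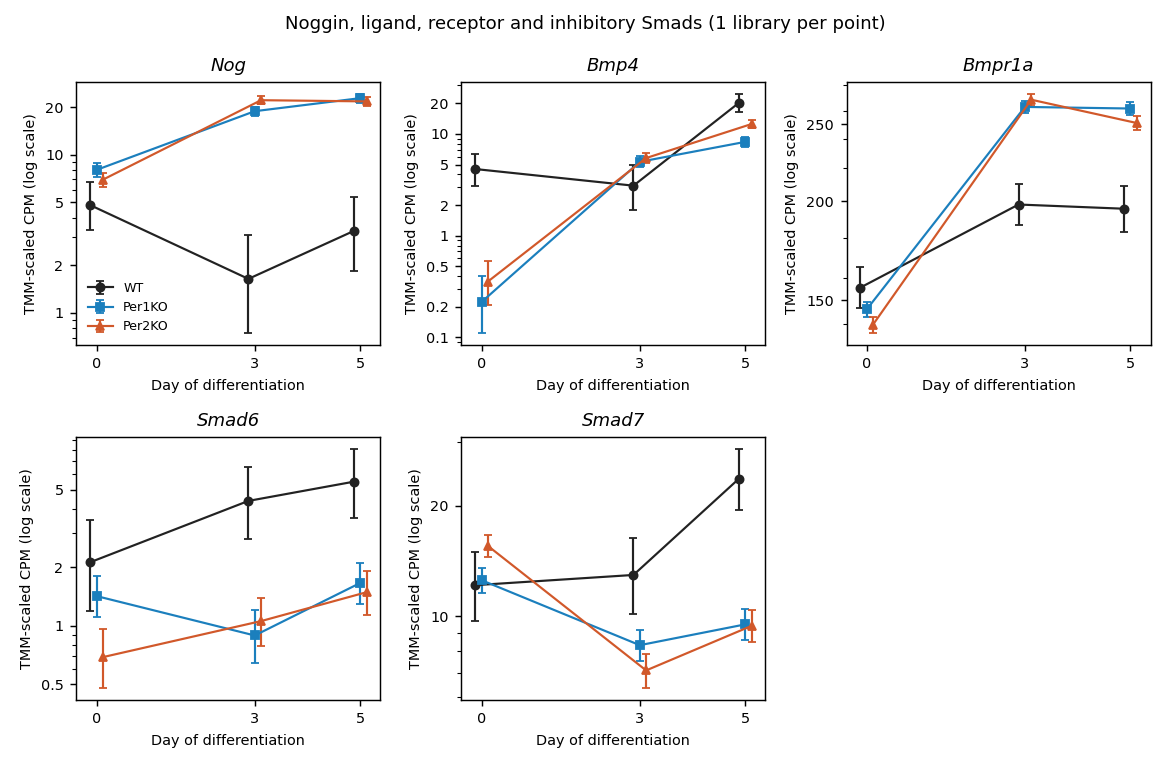
Level of Nog, Bmp4, Bmpr1a, Smad6 and Smad7 in each library, in TMM-scaled counts-per-million on a log axis, against the day of differentiation. Each point is 1 library, and bars are 95% Poisson intervals of its count. Nog lies higher in all 6 knockout libraries than in WT (1.64 to 4.80 CPM), Smad6 lies lower in all 6, and Bmp4 starts at 0.223 and 0.354 CPM in the knockouts.

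Smad6 (ENSMUSG00000036867, chr9:63953076-64022059, minus strand), the inhibitory Smad that acts mainly on BMP receptors, was lower in both knockouts. WT held 2.12, 4.38 and 5.50 CPM on days 0, 3 and 5 (15, 24 and 25 counts), Per1KO 1.42, 0.890 and 1.66 CPM, and Per2KO 0.689, 1.06 and 1.49 CPM. The knockout libraries did not overlap the WT libraries, as was the case in this direction for 8.11% of the genes tested. The log2 difference was −1.53 ± 0.35 in Per1KO (adjusted p = 0.0218) and −1.87 ± 0.36 in Per2KO (adjusted p = 0.00978), edgeR's quasi-likelihood test. It was negative in every alternative, at −2.00 to −1.16 and −1.97 to −1.77, but the calls rest on low WT counts. Without day 3 the values were −1.16 (adjusted p = 0.156) and −1.77 (adjusted p = 0.0812), and without day 5 they were −1.42 (adjusted p = 0.204) and −1.87 (adjusted p = 0.111). In Per1KO the call was also lost with the knockouts thinned to WT depth (−1.28, adjusted p = 0.0694) and with only the 6 libraries compared (−1.55, adjusted p = 0.0642). Neither day difference from day 0 passed the test (0.22, adjusted p = 0.645, and 0.79, adjusted p = 0.0851). The day 5 to day 0 ratio was 2.60 (1.32 to 5.29) in WT, 1.17 (0.825 to 1.65) in Per1KO and 2.16 (1.40 to 3.37) in Per2KO.

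Smad7 (ENSMUSG00000025880, chr18:75367529-75395935, plus strand), which inhibits both BMP and TGF-beta receptors, was not below WT in the knockouts on day 0 and was below it afterwards. WT held 12.1, 13.0 and 23.8 CPM, Per1KO 12.5, 8.32 and 9.49 CPM, and Per2KO 15.6, 7.10 and 9.40 CPM. WT and knockout libraries overlapped because of day 0. The Per1KO to WT ratio was 1.03 (0.822 to 1.31), 0.643 (0.498 to 0.839) and 0.400 (0.322 to 0.499) on days 0, 3 and 5, and the Per2KO to WT ratio was 1.28 (1.02 to 1.62), 0.548 (0.423 to 0.718) and 0.396 (0.319 to 0.495). Fitted over all days, −0.68 ± 0.30 (adjusted p = 0.154) and −0.64 ± 0.30 (adjusted p = 0.178) did not pass. On days 3 and 5 alone the values were −1.01 (adjusted p = 0.0256) and −1.13 (adjusted p = 0.0173). No other alternative gave a call against WT. Values there reached −0.31 in Per1KO and −0.24 in Per2KO, with adjusted p up to 0.643 and 0.713. Over the 3 genotypes the day differences did not pass (−0.62, adjusted p = 0.135, and −0.14, adjusted p = 0.731). In the knockouts alone, the only alternative with a call, the values were −0.86 on day 3 (adjusted p = 0.00431) and −0.57 on day 5 (adjusted p = 0.0186).

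The Id genes fell as the cells differentiated. Id1 (ENSMUSG00000042745, chr2:152736251-152737410, plus strand) held 22.5, 15.7 and 16.3 CPM in WT on days 0, 3 and 5, 28.4, 10.0 and 10.6 CPM in Per1KO, and 17.2, 8.15 and 9.08 CPM in Per2KO. Id2 (ENSMUSG00000020644, chr12:25093799-25097140, minus strand) held 25.8, 13.1 and 5.06 CPM in WT, 31.1, 5.11 and 7.64 CPM in Per1KO, and 11.2, 3.81 and 6.09 CPM in Per2KO. Id3 (ENSMUSG00000007872, chr4:136143497-136145755, plus strand) held 40.1, 7.30 and 7.04 CPM in WT, 42.3, 6.40 and 11.4 CPM in Per1KO, and 22.7, 6.21 and 13.5 CPM in Per2KO. Day 0 was the highest library of every population for all 3 genes, and on day 0 Per1KO was close to WT or above it while Per2KO was below. Id1 changed by −1.08 ± 0.20 on day 3 (adjusted p = 0.00588) and −0.98 ± 0.20 on day 5 (adjusted p = 0.00589) on the log2 scale. Id2 changed by −1.75 ± 0.39 (adjusted p = 0.0124) and −1.63 ± 0.39 (adjusted p = 0.0108), and Id3 by −2.40 ± 0.30 (adjusted p = 9.89e-04) and −1.63 ± 0.29 (adjusted p = 0.00311). Only the day 3 call of Id3 held with each population left out in turn. Without Per1KO the others had adjusted p-values of 0.107 and 0.106 for Id1, 0.163 and 0.0893 for Id2 and, on day 5, 0.0529 for Id3. Without Per2KO they were 0.0732 and 0.0582 for Id1 and 0.0625 for Id2 on day 3. Id4 (ENSMUSG00000021379) had 20 counts over all 9 libraries, at most 7 in any, and stood at 0 to 0.182 CPM, too low to be tested. The genes A330033J07Rik and Gm49291, overlap it on the other strand.

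Against WT, Id1 in Per2KO was the 1 Id value that passed the test (−0.72 ± 0.21, adjusted p = 0.0470), with the Per2KO to WT ratio at 0.765 (0.646 to 0.912), 0.520 (0.411 to 0.664) and 0.558 (0.434 to 0.727) on days 0, 3 and 5. The call was lost without day 3 (−0.61, adjusted p = 0.237), without day 5 (−0.67, adjusted p = 0.239) and in 4 further alternatives, with adjusted p-values of 0.0582 to 0.0857. In Per1KO the Id1 difference was −0.29 ± 0.21 (adjusted p = 0.371). Without day 0 it was −0.64 (adjusted p = 0.0328), the only alternative with a call. The others reached −0.11, with adjusted p up to 0.824. Id2 differed by −0.23 ± 0.40 (adjusted p = 0.712) in Per1KO and −1.001 ± 0.41 (adjusted p = 0.126) in Per2KO, and Id3 by 0.12 ± 0.30 (adjusted p = 0.802) and −0.08 ± 0.31 (adjusted p = 0.875). The Id2 values varied by day. On day 0 the Per2KO to WT ratio was 0.433 (0.366 to 0.515) and the Per1KO to Per2KO ratio 2.78 (2.52 to 3.07), on day 3 both knockouts were below WT at 0.389 and 0.290, and on day 5 the intervals of both ratios held 1 (0.989 to 2.42 and 0.784 to 1.93). On day 5 Id3 was above WT in both knockouts, at 1.62 (1.13 to 2.39) and 1.92 (1.34 to 2.84).

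**Figure D2:**
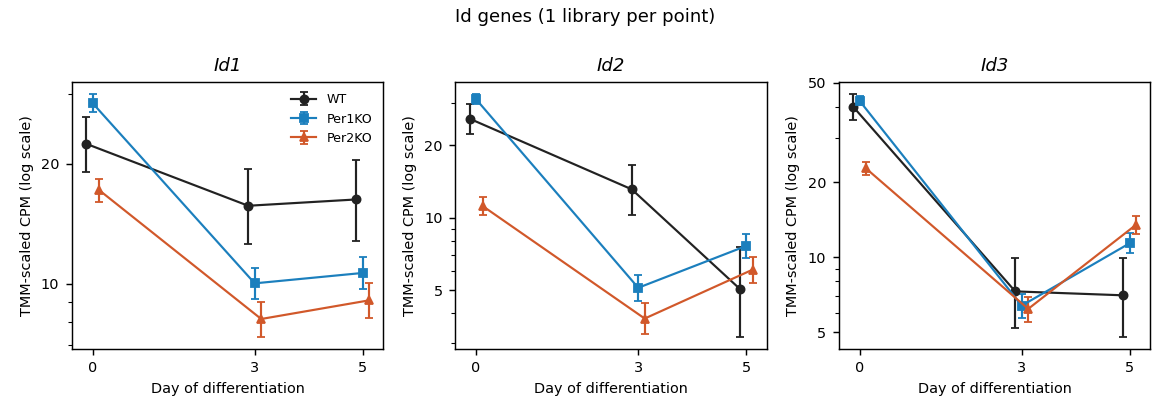
Level of Id1, Id2 and Id3 in each library, in TMM-scaled counts-per-million on a log axis, against the day of differentiation, with 1 library per point and 95% Poisson intervals as bars. All 3 genes are highest on day 0 in each population, and Per2KO starts lower (17.2, 11.2 and 22.7 CPM) than WT (22.5, 25.8 and 40.1 CPM).

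Of the 9 members other than Nog, 7 passed the filter on low counts. In Per1KO, 0 were called higher and 1 lower, with a median log2 difference of −0.29 against −0.02 over all genes; 9.26% of the genes tested were called higher and 10.1% lower. In Per2KO, 0 were called higher and 2 lower, with a median of −0.72 against −0.01 over all genes; 9.31% were called higher and 10.6% lower. The shares rest on few genes and lie near the background in Per1KO. Both comparisons use the same WT libraries. For differentiation, 2 of 8 tested members (Bmp4 and Bmpr1a) were called higher and 3 (Id1, Id2 and Id3) lower on both days. Among all genes tested 18.1% were called higher and 16.9% lower on day 3, and 23.2% and 22.9% on day 5. No member passed the test between Per1KO and Per2KO: edgeR called 0% of all genes in either direction, with 88 genes at an unadjusted p under 0.05 and 1 gene called by DESeq2. With only the 6 knockout libraries fitted, edgeR again called 0 genes, but 621 genes, 3 of them members, had an unadjusted p under 0.05. The absence of calls does not show that the knockouts are alike. The widest member differences between the knockouts were in Id2 (log2 0.77 ± 0.37, Per1KO minus Per2KO) and Id1 (0.43 ± 0.20), both with adjusted p = 1.00. A difference in the response to differentiation, days 3 and 5 against day 0, was likewise called for 0% of genes in either knockout. At an unadjusted p under 0.05 there were 1426 and 1783 such genes, and DESeq2 called 248 and 476, of which 0 were members. Among the members tested there, Bmp4 had the widest values (3.57 ± 1.65, adjusted p = 0.512, and 3.33 ± 1.58, adjusted p = 0.435). The value for Nog, a description, was 2.36 ± 0.51 and 2.64 ± 0.51.

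**Figure D3:**
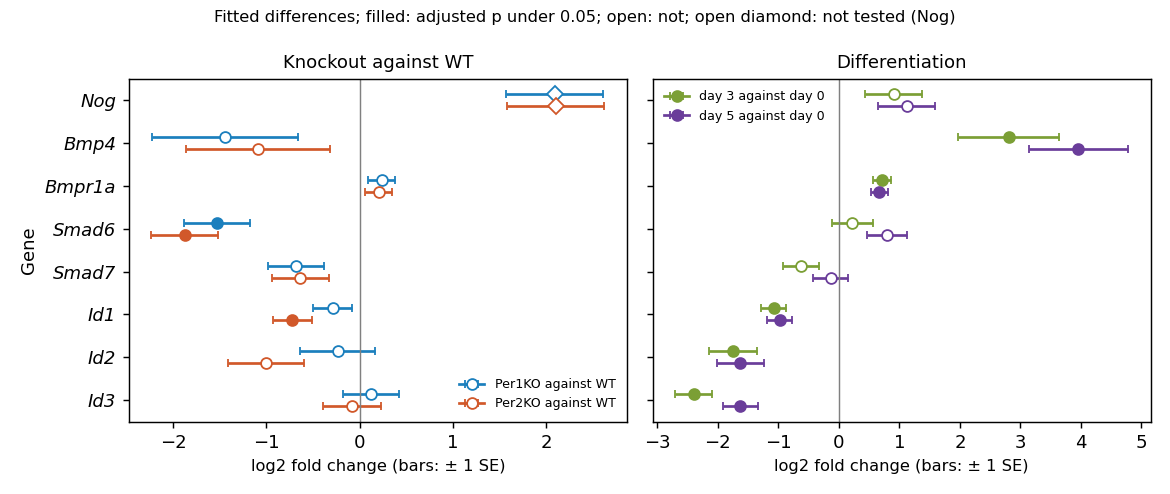
Fitted log2 differences of the 8 members with enough counts, for each knockout against WT (left) and for days 3 and 5 against day 0 (right), with bars of 1 SE. Filled points passed an adjusted p of 0.05, open points did not, and the diamonds of Nog (2.09 and 2.102) were not tested. Smad6 is the 1 member called in both knockouts, and the 3 Id genes lie left of zero on both days.

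Per kilobase of exon, the mean level over the 9 libraries fell in the order Bmpr1a (32.9 CPM per kb), Id1 (13.2), Id3 (9.74), Nog (7.21), Id2 (4.97), Bmp4 (2.99), Smad7 (2.73), Smad6 (0.665), Id4 (0.0201) and Bmp2 (0). The ranges over libraries of neighbours in this order overlapped down to Smad6. Smad6 (at least 0.215 CPM per kb) and Id4 (at most 0.0474) did not overlap.

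The rest of the pathway was taken from a list of 64 further genes of which 37 were tested. In Per1KO 1 was called higher and 14 lower, with a median of −0.46, where 9.26% of all genes tested were called higher and 10.1% lower. In Per2KO 1 was called higher and 13 lower, also with a median of −0.46, where 9.31% and 10.6% of all genes were. The medians over all genes were −0.02 and −0.01. The lower counts include Smoc2, which passed the filter through the WT libraries alone and so had to differ. Without it they were 13 and 12 of 36. Both counts still include Chrdl1, for which the WT libraries alone met the filter. It was below 1 CPM in every Per1KO library. Without day 3 or without day 5 the counts were 0 higher and 3 or 4 lower, and with only the 6 libraries compared at most 1 higher and 8 lower in Per1KO and 5 in Per2KO. Of the genes named below, 2 stayed called in each knockout without day 3 and 2 without day 5. Rgma was among them each time, Chrdl1 in Per1KO and Gdf5 in Per2KO without day 3, and Smoc2 in both without day 5. Because of the filter, the calls of Smoc2 and Chrdl1 carry no weight here. The gene called higher with all libraries was Crim1, a membrane protein that holds BMPs back, at 12.1, 3.10 and 8.80 CPM in WT on days 0, 3 and 5, 16.6, 12.7 and 17.6 CPM in Per1KO, and 22.6, 11.2 and 17.03 CPM in Per2KO (1.07 ± 0.26, adjusted p = 0.0273, and 1.12 ± 0.26, adjusted p = 0.0213). Of the other secreted antagonists and modulators, Smoc2 was at 2.40, 15.9 and 28.8 CPM in WT and at most 0.284 CPM in any knockout library. Chrdl1, a chordin relative that binds BMPs, was at 0.989, 1.46 and 11.9 CPM in WT. It reached at most 0.288 CPM in Per1KO and 1.19 CPM in Per2KO. No Per1KO library helped it past the filter, so its Per1KO difference of −4.40 ± 0.72 is a description. The WT libraries alone met the filter for Chrdl1, so its Per2KO difference of −2.76 ± 0.63 is a description as well. Of 12 tested antagonists and modulators, 2 were called higher and 6 lower in each knockout. Among all genes tested, 9.26% and 10.1% were in Per1KO, and 9.31% and 10.6% in Per2KO. The 2 higher were Crim1 and Nog, which was chosen for its level. The 6 lower include Smoc2 and Chrdl1, whose calls carry no weight. Grem1 was called only in Per1KO and Fstl3 only in Per2KO.

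Gdf5, the other ligand with enough counts, was at 0.141, 4.38 and 15.0 CPM in WT, 0.0608, 0.414 and 2.31 CPM in Per1KO, and 0, 0.807 and 1.53 CPM in Per2KO. It was lower by −2.83 ± 0.48 (adjusted p = 0.00569) and −2.91 ± 0.48 (adjusted p = 0.00490). Rgma, a BMP co-receptor, was at 64.7, 161 and 198 CPM in WT against 11.2 to 72.4 CPM in the knockouts (−1.78 ± 0.22, adjusted p = 0.00143, and −1.53 ± 0.22, adjusted p = 0.00264). Smad1, a mediator of the signal, was at 32.6 to 37.2 CPM in WT and 19.4 to 23.3 CPM in the knockouts (−0.69 ± 0.12, adjusted p = 0.00678, and −0.64 ± 0.12, adjusted p = 0.00926). Smad5 was called in Per1KO (−0.45 ± 0.12, adjusted p = 0.0371) and not in Per2KO (−0.34 ± 0.12, adjusted p = 0.0858), and the difference between the knockouts did not pass the test (−0.11 ± 0.12). Skil, a repressor of Smad-driven transcription, was lower by −0.46 ± 0.13 in both (adjusted p = 0.0424 and 0.0428).

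Of the partners of the Id proteins, Tcf3 was lower by −0.55 ± 0.12 (adjusted p = 0.0162) and −0.57 ± 0.12 (adjusted p = 0.0134). Myog, which encodes the muscle regulator myogenin, was at 124, 868 and 1060 CPM in WT, 5.35, 262 and 351 CPM in Per1KO, and 2.91, 226 and 271 CPM in Per2KO (−2.80 ± 0.72, adjusted p = 0.0325, and −3.18 ± 0.73, adjusted p = 0.0217). Atoh8, a BMP-induced transcription factor, was lower by −1.25 ± 0.36 (adjusted p = 0.0473) and −1.24 ± 0.36 (adjusted p = 0.0478). With TMM over protein-coding genes, Atoh8 and Skil lost their calls in both knockouts. With no count filter, Skil and Myog lost theirs in both, and Smad5 in Per1KO. With the knockouts thinned to WT depth, Myog and Atoh8 were lost in Per1KO and Skil in Per2KO. Without day 0, Smad5 was lost in Per1KO and Atoh8 in Per2KO. Against day 0, 11 of the 37 genes were called higher and 5 lower on day 3, where 18.1% and 16.9% of all genes tested were. On day 5, 15 were called higher and 4 lower, against 23.2% and 22.9% of all genes.

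**Figure D4:**
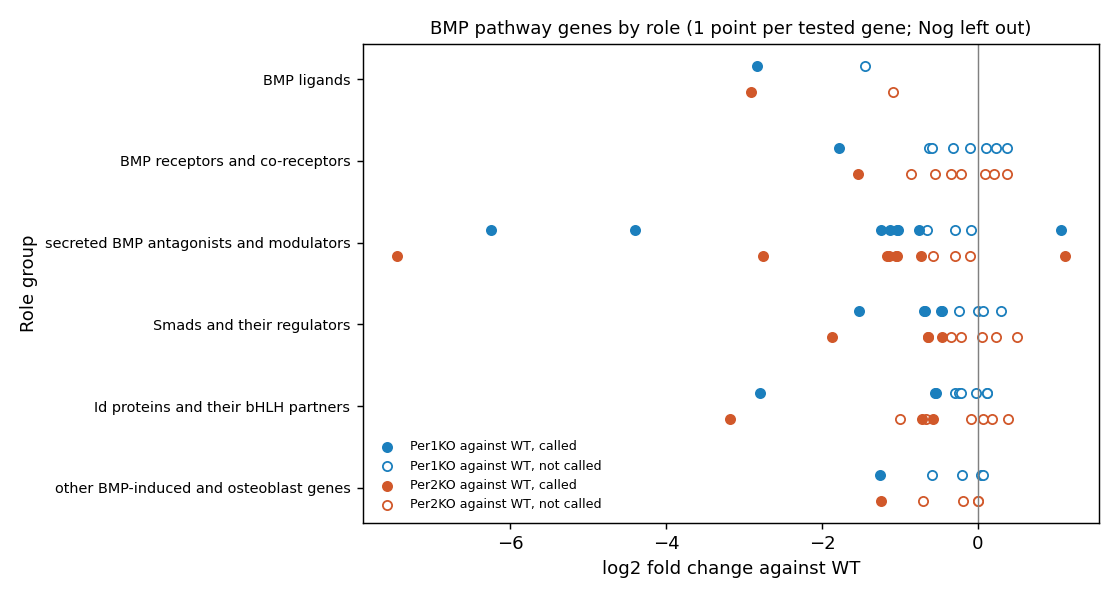
Fitted log2 difference from WT of every tested gene of the BMP pathway list by role, 1 point per gene, in Per1KO and Per2KO, with Nog left out. Filled points passed an adjusted p of 0.05. Most filled points lie left of zero, and Crim1 (1.07 and 1.12) is the filled point on the right.

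Among 11745 protein-coding genes tested, those whose log2 level followed that of Nog most closely over the 9 libraries were Pafah1b1 (Pearson r = 0.996), Pip4k2c (0.991), Nfatc3 (0.988), Erap1 (0.983) and Antxr2 (0.979). The likeness is of shape and not of size: Pafah1b1, which encodes a regulator of the dynein motor, ranged from 288 to 444 CPM, and Erap1, which encodes a peptide-trimming enzyme, from 15.5 to 43.7 CPM. As with Nog, WT on day 3 was the lowest library of each of the 5. The 9 points share genotype, day and depth, so r is a description over libraries and carries no p-value.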

How the data were processed

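RNA of C2C12 cells was measured in 9 libraries, 1 per genotype and day. The values are the authors' deposited read counts per Ensembl gene, whole numbers and not normalized. Per the labels' protocols, polyadenylated RNA was made into TruSeq libraries and sequenced as single reads on a HiSeq 2500. The submitters' processing notes name CASAVA 1.8, HISAT2 2.1.0 and build mm10. The counting program, annotation and use of strand were not given in the sources used here.

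A gene was tested if 3 or more libraries reached 1 CPM, which 13324 did. Library sizes were scaled by TMM, and CPM is scaled that way. edgeR 4.0.16 (limma 3.58.1, R 4.3.3) fitted genotype and day additively to all 9 libraries (4 residual degrees of freedom), and genotype by phase, day 0 or days 3 and 5 (3 residual degrees of freedom), for the response to differentiation, with robust quasi-likelihood tests. Every adjusted p-value is from edgeR with Benjamini-Hochberg adjustment over all genes tested, called under 0.05. The SE is the log2 difference divided by the root of its F statistic. With 1 library per group, the spread of a genotype was taken over its days and that of a day over the genotypes, so p-values measure the spread among these libraries and not among independently made populations. Ratios of 2 libraries carry exact 95% counting intervals. The fit was run on simulated data in which the days did not differ. That run cannot check the use of days in place of replicates. Positions and exon lengths are from GENCODE M21, build GRCm38. 1 symbol of the lists, Hjv, was matched as Hfe2 through RefSeq synonyms.

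The members, the lists and the tests were chosen with earlier results of these data known. Genes outside the 10 were named by rule: in each role group every gene called in a knockout, or, where over 4 were called, the 2 largest rises and falls, and the 5 genes most like Nog. Alternatives were another scaling (DESeq2 size factors, TMM over protein-coding genes), DESeq2 1.42.0, no count filter, thinning to WT depth, only the libraries compared, and leaving out each day or population.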

Additional observations from a re-analysis of the deposited data

Results flagged for a closer look

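The ratios of Nog and Smad7 to day 0 lay on opposite sides of 1 in WT and in the knockouts. Relative to day 0, Nog stood at 0.342 on day 3 and 0.687 on day 5 in WT, at 2.35 and 2.84 in Per1KO, and at 3.18 and 3.12 in Per2KO. For Nog, chosen on its level against WT, this difference was not tested. Smad7 stood at 1.07 and 1.96 in WT, at 0.664 and 0.757 in Per1KO, and at 0.456 and 0.605 in Per2KO. For Smad7 the difference in response was −1.08 ± 0.55 (adjusted p = 0.541) in Per1KO and −1.50 ± 0.55 (adjusted p = 0.329) in Per2KO on the log2 scale, edgeR, and did not pass. Each value compares 1 library with 1 library, and in WT the day 3 value of Smad7 (0.768 to 1.48) and the day 5 value of Nog (0.348 to 1.30) lie within counting error of 1, so an opposite direction on both days is not shown for either gene. The 3 Nog counts in WT were 34, 9 and 15, so depth limits the WT side of both ratios.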

How the results depend on the processing

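Of 440 recomputed member values, 397 kept their side of the threshold or, for the untested Nog values, stayed within the SE. A change of sign was counted only where a tested value was called. Some values that were not called did change sign. Id2 in Per1KO against WT ran from −0.597 to 0.341, and Id3 in Per2KO from −0.530 to 0.347. All 108 single-day differences from WT, recomputed with a smaller constant added to the counts or with TMM over protein-coding genes, stayed within their counting intervals. The intervals come from the same counts, so this was nearly fixed in advance and lends no support. Leaving out 1 day at a time gave 780 to 2814 genes called in Per1KO against WT (2575 with all days) and 855 to 3138 in Per2KO (2652), and 0 to 4 members called in either knockout. The 4 came without day 0 (Bmpr1a, Smad6, Smad7 and Id1). With only the 6 libraries compared, 1391 and 1263 genes were called, with 0 members in Per1KO and 1 in Per2KO. Thinning the knockouts to WT depth left 0 and 1 members, and TMM over protein-coding genes or no count filter left 1 member in Per2KO. Per1KO against Per2KO gave 1 gene under DESeq2 and 1 with no filter. Leaving out 1 population at a time gave 1147 to 7684 genes and 1 to 7 members called on day 3 (4664 and 5 with all), and 2348 to 8586 genes and 0 to 7 members on day 5 (6149 and 5). The highest values came without WT, with Nog, chosen by its knockout levels, among the 7, and the lowest without Per1KO, with 1440 and 2993 genes and 1 and 2 members without Per2KO. For the response to differentiation DESeq2 called 248 and 476 genes and a fit with no filter 315 and 567, with 0 members throughout; leaving out day 3 or day 5 there left no residual degrees of freedom and was not run. Leaving libraries out also leaves fewer to fit, and the causes of these changes were not tested. Scaling alternatives moved the median of all genes by less than 0.1. Low WT counts limit the precision of Nog (9 to 34) and Smad6 (15 to 25), and Bmp2 and Id4 were too low to test.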
